A study of Drosophila melanogaster with 2 samples.

Results

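Mediator complex genes were examined for binding by Ets98B-eGFP in whole Drosophila melanogaster pupae. The genes were the protein-coding genes of the Ensembl 115 annotation whose symbol is MED followed by a digit, together with kto, skd, CycC and Cdk8. This rule gave 29 genes out of 13968 protein-coding genes on the main chromosome arms, and the remaining 13939 genes served for comparison. The fly gene of the MED29 subunit, ix, carries another symbol and was not among the 29.

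Ets98B belongs to the ETS family of transcription factors and was fused to eGFP. Chromatin from transgenic pupae aged 2 days, sheared by sonication to 200 to 800 bp, was precipitated with an antibody against GFP, and the 2 samples were biological replicates of 1 group. The description names this antibody, while the antibody field of the labels reads Ets98B. The labels name the strain Ets98B-GFP, with an insertion targeting Ets98B, and give neither a driving promoter nor the sex of the animals. No condition other than the tagged strain and no control track was analysed here, and whole pupae mix all cell types, so that a peak cannot be given to a tissue. The authors' conservative set, made from both replicates, held 7157 peaks. The thresholded lists held 5850 peaks on the main arms in replicate 1 and 7963 in replicate 2, and read depth was unknown because the lists hold no read counts.

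Mediator is a large coactivator that links DNA-bound transcription factors to RNA polymerase II at promoters. Its head and middle modules contact the polymerase, the scaffold subunit MED14 joins the modules, and the tail is the main landing place of activators. A separable kinase module, formed in flies by Cdk8, CycC, kto (the fly MED12) and skd (the fly MED13), controls the contact with the polymerase, and kto and skd are known from fly genetics for their part in imaginal disc patterning. In mammals the tail subunits MED23 and MED25 are known contacts of ETS factors, MED23 of ELK1 and MED25 of factors of the PEA3 group.

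Ets98B-eGFP peaks lay at the starts of 10 of the 29 Mediator genes. They were MED6, MED17 and MED30 of the head, MED4, MED7 and MED31 of the middle, MED16, MED23 and MED27 of the tail, and skd of the kinase module. A gene was called bound when a summit of the conservative set lay within 500 bp of a transcription start site (TSS) of any of its transcripts. Bound genes thus made up 34.5% of Mediator genes (95% Wilson interval 19.9 to 52.7%) and 21.4% of other protein-coding genes (2985 of 13939). The interval of the Mediator share included the share of other genes, so that at this window the difference was not distinguishable from counting error. With a window of 250 bp the same 10 genes were bound, against 17.7% of other genes, which is below the interval. Genes that share a promoter are not independent counts. Genes with a summit at a TSS or anywhere in the gene body made up the same 34.5% of Mediator genes, against 26.3% of other genes, because none of the 29 had a body summit without a TSS summit, compared with 675 other genes (4.84%).

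By module, 3 of 9 head genes, 3 of 9 middle genes, 3 of 6 tail genes and 1 of 4 kinase genes were bound, and MED14 was not. MED26 to MED30 are placed in different modules by different sources, and here MED26 was counted in the middle, MED28 and MED30 in the head and MED27 in the tail.

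The count was similar in the replicates. In replicate 1, 9 Mediator genes were bound (31.0%), against 17.8% of other genes. In replicate 2, 12 were bound (41.4%, 95% Wilson interval 25.5 to 59.3%), against 23.8% of other genes. The mean of the replicates was 36.2% ± 7.31 for Mediator genes and 20.8% ± 4.24 for other genes (SD, n = 2 each). Both replicates shared 9 genes, all except MED23 of the 10 bound in the set, which is 31.0% of Mediator genes (95% Wilson interval 17.3 to 49.2%) against 14.8% of other genes. In replicate 2 and for both replicates together the interval lay above the share of other genes at 500 bp, while in replicate 1 and in the set it did not. The replicate 2 count includes MED25, by a summit 492 bp from its TSS and thus at the edge of the window. For 11 of 29 genes the interval is 22.7 to 56.0%, which includes 23.8%. The 23.8% still counts other genes with summits at the edge of the window, so this comparison is not like for like. No test of the shares was made, since the genes were chosen with earlier results of these data known.

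Mediator genes differ from other genes in structure. Their median length was 1330 bp, against 2165 bp for other genes, and 24 of the 29 (82.8%) had a single annotated TSS, against 73.5% of other genes. Among genes with a single TSS, 8 of 24 Mediator genes were bound (33.3%, 95% Wilson interval 18.0 to 53.3%), against 15.3% of other such genes, and this interval too lay above the share of other genes. Among genes with more than 1 TSS, 2 of 5 Mediator genes were bound, against 38.3% of other genes. Another protein-coding gene started within 500 bp of a TSS for 19 of the 29 Mediator genes (65.5%), against 30.8% of other genes. Of these 19 genes, 9 were bound (47.4%), against 33.8% of other genes with such a neighbour. Of the 10 without one, 1 was bound, namely MED4, against 15.9% of other genes without such a neighbour. With these few genes the intervals of both shares (27.3 to 68.3% and 1.79 to 40.4%) included the shares of other genes.

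**Figure D1:**
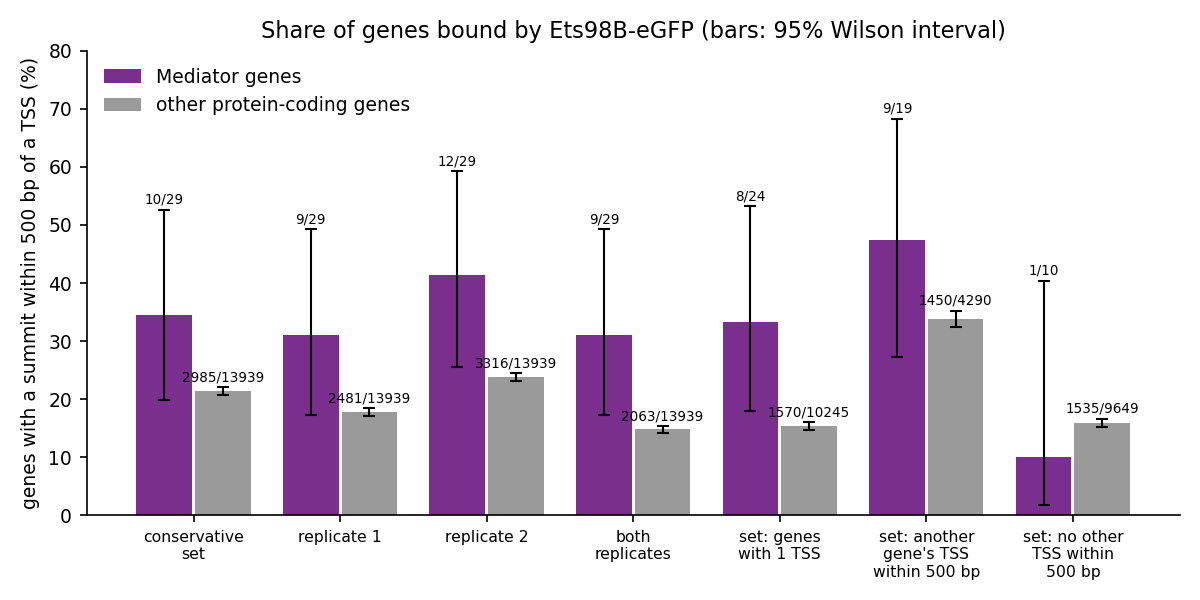
Share of Mediator genes (left bar of each pair) and of other protein-coding genes (right bar) with an Ets98B-eGFP summit within 500 bp of a TSS, in percent, with 95% Wilson intervals as error bars and counts above the bars. The Mediator share was 34.5% in the conservative set and higher than that of other genes in each list, but lower (1 of 10 genes) where no other gene started nearby.

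Among the peaks at Mediator TSSs, the 5 strongest lay upstream of the nearest TSS and were narrow. The sequences at the summits of 5 bound genes whose summit lay outside the exons of protein-coding genes are shown first, because they are the DNA that the peaks centre on. Each runs 5′ to 3′ in the direction of the Mediator gene, from the Release 6 reference assembly (dm6 coordinates), and capitals mark GGAA or GGAT, core words of ETS binding sites, on either strand. The windows span 101 bp centred on the summit, except that of MED4, which was shortened to 97 bp to leave out an exon of a protein-coding gene. The full MED4 and MED7 windows overlap exons of the antisense RNAs asRNA:CR43470 and asRNA:CR45016.
MED30 (chr3L:654230-654330, minus strand): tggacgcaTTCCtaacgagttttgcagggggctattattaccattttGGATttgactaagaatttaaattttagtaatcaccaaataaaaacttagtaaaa
MED4 (chr3L:7250621-7250717, minus strand): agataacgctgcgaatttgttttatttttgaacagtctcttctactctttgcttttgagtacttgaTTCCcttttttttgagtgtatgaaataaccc
MED27 (chr3R:5654933-5655033, plus strand): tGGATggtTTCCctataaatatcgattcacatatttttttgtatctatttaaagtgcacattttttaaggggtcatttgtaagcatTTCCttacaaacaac
MED17 (chr3R:18188943-18189043, plus strand): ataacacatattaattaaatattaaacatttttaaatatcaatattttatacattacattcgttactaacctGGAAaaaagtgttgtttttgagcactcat
MED7 (chr3R:10761071-10761171, minus strand): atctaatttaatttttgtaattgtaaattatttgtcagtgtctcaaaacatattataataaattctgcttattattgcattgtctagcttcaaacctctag

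These windows are rich in A and T. Over the 12 TSS summits of Mediator genes, the median GC content of 101 bp was 33.7%, against 40.6% over the 2839 TSS summits of the set. GGAA or its complement TTCC was present at 8 of the 12 summits (66.7%), against 50.1% of all TSS summits, and GGAT or its complement at 5 of 12 (41.7%), against 31.2%. MED7 had neither word in its window. The longer ETS word CCGGAAGT was at none of the 12, and at 0.176% of all TSS summits. A match of a short word is a description of the sequence and not a mapped site.

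MED30, which encodes a head subunit found in animals but not in yeast, had the highest signal among Mediator genes. Its peak (FBgn0035149; 3L, 654157 to 654392, dm6) reached a signal of 401 in the conservative set, with 184 in replicate 1 and 209 in replicate 2. Signal is a value that the authors deposited with every peak on an unstated scale, so it is compared only within a list. The summits of all 3 lists fell within 1 bp of each other, 191 bp upstream of the TSS. On the opposite strand, the start of Rev1, the gene of a translesion DNA polymerase, lay 83 bp from the summit.

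MED4, a middle subunit, was the only bound gene with no other protein-coding start within 500 bp. Its peak (FBgn0035754; 3L, 7250604 to 7250802) had a signal value of 256, with 126 in replicate 1 and 138 in replicate 2, and a summit 144 bp upstream of the TSS. The start of an annotated antisense RNA, asRNA:CR43470, lay 31 bp from this summit. The other 9 bound genes had no start of a non-coding gene within 500 bp of their summits.

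MED27, assigned here to the tail, had a signal value of 254 in the set (FBgn0037359; 3R, 5654923 to 5655108), with 136 in replicate 1 and 105 in replicate 2. The summit lay 156 bp upstream of MED27 and 122 bp from the divergent start of elm, a gene of an EF-hand protein. MED17, the central subunit of the head, had a signal value of 226 (FBgn0038578; 3R, 18188956 to 18189096), with 135 in replicate 1 and 72.5 in replicate 2. Its summit lay 79 bp upstream, and CG12321 started 286 bp from it on the other strand.

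MED31, a small middle subunit, shares its annotated TSS with slx1, the gene of a DNA endonuclease subunit. The peak (FBgn0037262; 3R, 4641605 to 4641984) had a signal value of 185 in the set, against single-replicate values of 113 (replicate 1) and 65.0 (replicate 2). The summit, 168 bp upstream of MED31, lay in an intron of the divergent gene CG9775 and 43 bp from one of its starts. MED17 and MED31 were the members with the largest excess of replicate 1 over replicate 2, with ratios of 1.86 and 1.73. The median ratio over the 6429 conservative peaks matched in both replicates was 0.909, and 90% of them had a ratio below 1.40, so both genes were above most peaks.

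The remaining bound head and middle genes were weaker. MED6, a head subunit, had 2 TSS peaks and 5 annotated TSSs (FBgn0024330). The stronger one (3R, 9768263 to 9768642) had a signal value of 119.6, with 64.9 in replicate 1 and 54.7 in replicate 2. The other (3R, 9767636 to 9768015) had 107 in the set, with 48.4 (replicate 1) and 51.0 (replicate 2), and was in the thresholded list of replicate 2 but not of replicate 1. Its summit lay in the 19 bp between a MED6 start and the start of Naa80, an N-terminal acetyltransferase gene on the opposite strand. MED7, a middle subunit, had a signal value of 105 (FBgn0051390; 3R, 10760931 to 10761310), with 64.3 in replicate 1 and 47.5 in replicate 2. Its summit lay 89 bp upstream, between the starts of MED7 and the condensin II gene Cap-H2.

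The other 2 tail genes had the lowest values of the bound members. MED23 had a signal value of 98.9 in the set (FBgn0034795; 2R, 22888867 to 22889246), with 44.5 in replicate 1 and 61.6 in replicate 2. The replicate 1 peak was ranked but not thresholded there, so that MED23 was the only bound member that rested on 1 replicate at the authors' threshold. Its summit lay 129 bp downstream of the TSS in an intron, and 200 bp from the start of Gmer, a gene of GDP-fucose synthesis. MED16 had a signal value of 91.4 (FBgn0034707; 2R, 22182893 to 22183272), with 55.3 in replicate 1 and 49.8 in replicate 2, and a summit 55 bp upstream, between its start and that of CG11170.

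**Figure D2:**
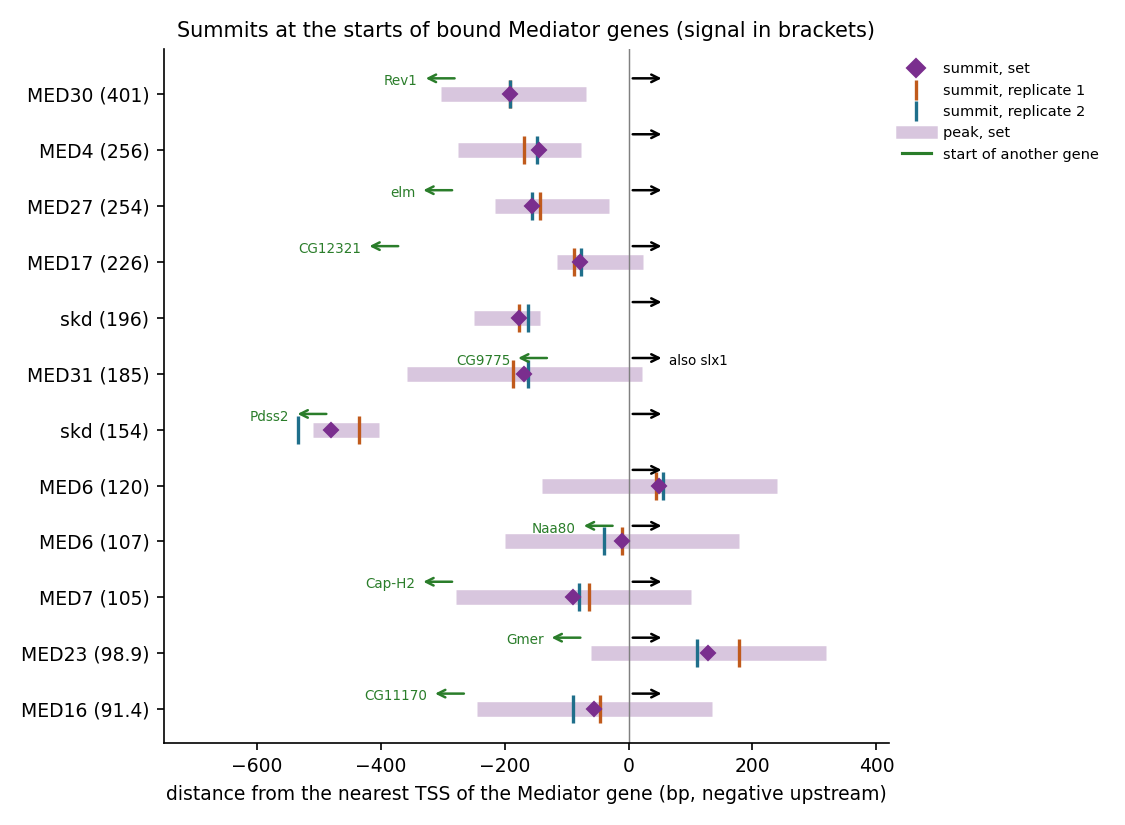
Position of each TSS peak of a bound Mediator gene, with the nearest TSS of that gene at 0 and transcription to the right (distance in bp). Bars are the peaks of the conservative set, diamonds their summits, orange and blue ticks the matched summits of replicates 1 and 2, and green arrows the starts of other protein-coding genes; summits of MED30, MED4, MED27, MED17 and skd fell upstream of the nearest start.

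Most of the bound promoters were shared with another gene. For 7 of the 10 bound genes, the strongest TSS summit was also within 500 bp of the start of another protein-coding gene (70%, 95% Wilson interval 39.7 to 89.2%), against 44.3% of other bound genes. These were MED7, MED16, MED17, MED23, MED27, MED30 and MED31, each with a divergent neighbour. The interval included the 44.3% of other bound genes. Bound or not, 19 of the 29 Mediator genes (65.5%) had another gene's start within 500 bp of a TSS. In MED6 and skd only a weaker TSS peak was shared. The summit was nearer to the neighbour's start than to the Mediator start at MED27, MED30 and MED31, nearer to the Mediator start at MED7, MED16, MED17 and MED23. Such a peak cannot be given to 1 of the 2 genes.

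The place of the summits was like that of other bound genes. The strongest summit lay upstream of the nearest TSS in 8 of 10 Mediator genes, against 78.3% of other bound genes, and the median distance was 136.5 bp against 125 bp. Peaks narrower than 380 bp, the most common width in the set, had higher values among Mediator peaks (8 peaks, 154 to 401) than those of 380 bp (8 peaks, 91.4 to 185), and the medians over the whole set were 232 and 100.1. The peaks of MED4, MED27, MED30 and skd were narrow and did not reach the TSS, so that only 6 Mediator genes (20.7%, against 13.5% of other genes) were bound when the peak interval itself had to cover a TSS.

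The median signal of the strongest TSS peak was 191 over the 10 bound Mediator genes, against 143 over the 2985 other bound genes. Mediator values spanned 91.4 to 401, and the quartiles of other bound genes were 103 and 244. MED30 was above 88.3% of the other bound genes, MED4 above 76.6% and MED16 above 16.2%, so the members were spread over most of the range without reaching its top. The order of the medians held in replicate 1 (113 over 9 Mediator genes, 77.5 over other bound genes) and turned round in replicate 2 (63.3 over 12 Mediator genes, 76.2 over other bound genes). It also turned round when the peak interval had to cover a TSS (112 over 6 Mediator genes, 120.5 over other genes).

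**Figure D3:**
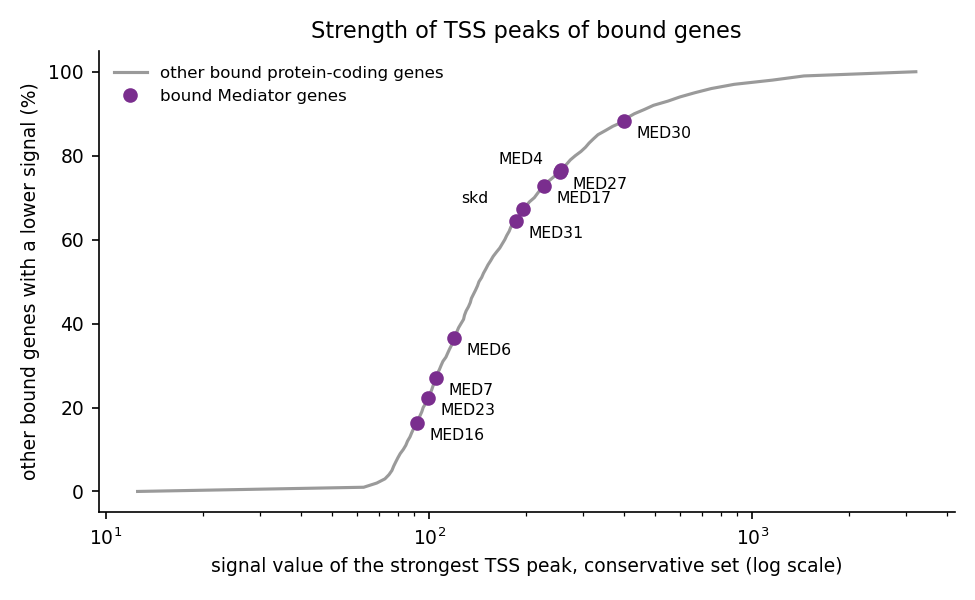
Signal value of the strongest TSS peak in the conservative set (log axis) against the percentage of other bound protein-coding genes with a lower value. The grey line is the distribution of other bound genes and the points are the 10 bound Mediator genes, from MED16 at 16.2% to MED30 at 88.3%.

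The kinase module gene skd was the only Mediator gene with conservative peaks in its body more than 500 bp from a TSS. The gene (FBgn0003415; 3L, 20992814 to 21027434, minus strand) is 34621 bp long, the longest of the 29. By the same assignment as for other genes it had 6 conservative peaks, 2 at a TSS and 4 in the body, and 5 of the summits lay within the gene and 1 upstream of it. Among other genes of at least 30000 bp, the median number was 2 peaks, 146 of 669 (21.8%) had 6 or more, and 33.9% had none. The windows of the strongest promoter peak and the strongest intronic peak are shown in the direction of skd, with GGAT on either strand in capitals; the first holds no ETS core word but a run of GAGAG words in complement.
skd promoter (chr3L:21026331-21026431, minus strand): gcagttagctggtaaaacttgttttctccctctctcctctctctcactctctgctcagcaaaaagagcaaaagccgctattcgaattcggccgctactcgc
skd intron (chr3L:21009720-21009820, minus strand): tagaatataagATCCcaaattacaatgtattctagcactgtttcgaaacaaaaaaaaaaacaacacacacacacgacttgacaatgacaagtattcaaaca

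The promoter peak shown (3L, 21026347 to 21026454) had a signal value of 196 in the set, with 59.6 (replicate 1) and 139 (replicate 2), and a summit 177 bp upstream of the internal skd TSS. Its replicate ratio of 0.428 was low, since only 10% of matched peaks had a ratio under 0.512. The other promoter peak (3L, 21027836 to 21027944; signal 154, with 75.2 and 99.9 in replicates 1 and 2) had its summit 480 bp upstream of the first skd TSS and 1 bp from the divergent start of Pdss2, a gene of ubiquinone synthesis. It is just inside the window of 500 bp, and its summit is much nearer to the start of Pdss2 than to that of skd.

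The intronic peak shown (3L, 21009692 to 21009877) was the strongest of the locus, with 238 in the set and 117 in each replicate, at 16434 bp from the nearest TSS. A peak in a non-coding part of an exon (3L, 21025136 to 21025319), 982 bp downstream of the internal TSS, had 218 in the set, with 84.9 (replicate 1) and 137 (replicate 2). Both were in the thresholded lists of both replicates. The last 2 body peaks were intronic and weaker. One (3L, 21023374 to 21023753) had 93.5 in the set, with 40.2 (replicate 1) and 62.9 (replicate 2), and the other (3L, 21008796 to 21009175) had 96.0 in the set and 76.2 in replicate 2. In replicate 1 neither was thresholded, and the peak of 96.0 had no summit within 100 bp there. Replicate 2 also had thresholded summits that the set lacks at 860, 12662 and 16214 bp from the first TSS, with signals of 12.8, 71.5 and 39.8.

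**Figure D4:**
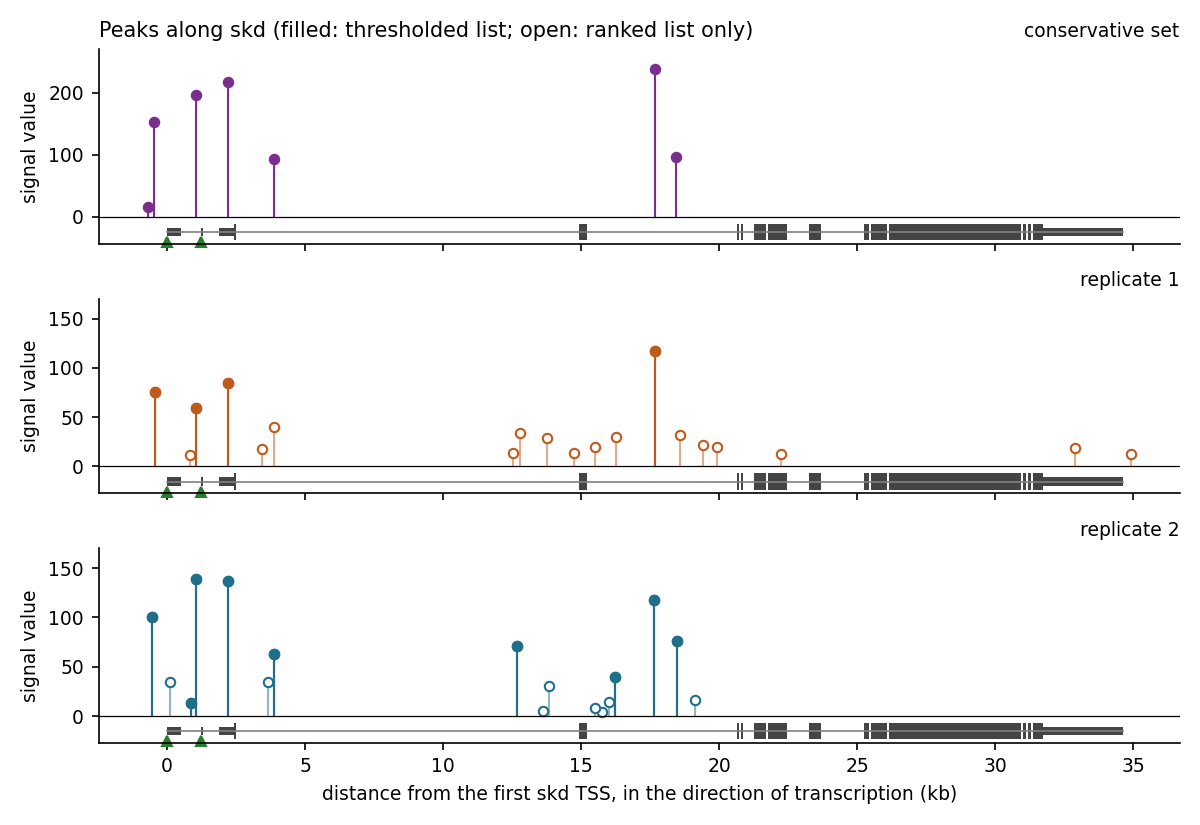
Signal value of each peak along skd in the conservative set, replicate 1 and replicate 2, by distance from the first skd TSS in the direction of transcription (kb). Filled points are in the thresholded list and open points only in the ranked list; boxes are exons (taller where coding) and triangles the 2 annotated TSSs; the peak at 17664 bp had 238 in the set and 117 in each replicate.

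The other 19 Mediator genes had no conservative peak at a TSS or in the gene. In the ranked series-level list, which also holds peaks below the authors' threshold, 8 of them (42.1%) had a TSS summit, against 33.3% of other genes that were not bound. Their signal values ran from 19.7 at MED11 to 56.1 at MED25, all below the 91.4 of the weakest bound member. MED25, MED19, MED28, MED14, MED9, MED8 and MED22 had 56.1, 55.7, 45.1, 42.7, 40.6, 28.4 and 22.1 in that list. In the replicates, the scaffold gene MED14 had 16.5 (replicate 1) and 25.3 (replicate 2), MED9 had 16.2 and 28.4, and MED11 had 10.6 and 9.83. MED8 had 25.5 in replicate 1 and no TSS summit in replicate 2, and MED22 had none in either.

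Of these genes, MED19 and MED25 passed the authors' threshold in replicate 2 only. MED19, a middle subunit, had a replicate 2 peak (signal 50.1, summit 66 bp from the TSS) and a value of 17.0 in the ranked list of replicate 1. MED25, a tail subunit, was thresholded in replicate 2 by a summit 492 bp from its TSS (signal 35.3). Another protein-coding gene, Hs6st, starts 435 bp from the MED25 TSS, so this peak cannot be given to MED25 alone. The MED25 value in the ranked list of replicate 1 was 34.5 at a summit 51 bp from the TSS. Cdk8, the kinase itself, had a ranked peak of 40.5 in replicate 2 with a score of 827, just under the lowest thresholded score of 830, and 12.8 in replicate 1. Its cyclin partner CycC had 16.8 in replicate 2 and no TSS summit in replicate 1.

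Other members had ranked peaks at their starts in replicate 2 but none in replicate 1. These were MED10, MED15, MED18, MED20 and MED28, with signals of 14.9, 25.4, 32.2, 16.0 and 41.8. The ranked list of replicate 2 is longer, with 47497 peaks on the main arms against 35735 in replicate 1. Of the 19 unbound Mediator genes, 13 had a ranked TSS summit in replicate 2 (68.4%), against 42.1% of other unbound genes. In replicate 1, 8 had one (42.1%), against 34.0%. The Wilson intervals were 46.0 to 84.6% and 23.1 to 63.7%, so only that of replicate 2 lay above the share of other genes. The difference was not tested. The kinase module gene kto had 11.0 in replicate 1 and 14.0 in replicate 2. MED1, MED21, MED24 and MED26 had no TSS summit in any of the 3 ranked lists used. The gene ix, outside the rule, had 41.3 in the ranked series-level list, 28.5 in replicate 1 and 18.8 in replicate 2, all below the threshold.

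**Figure D5:**
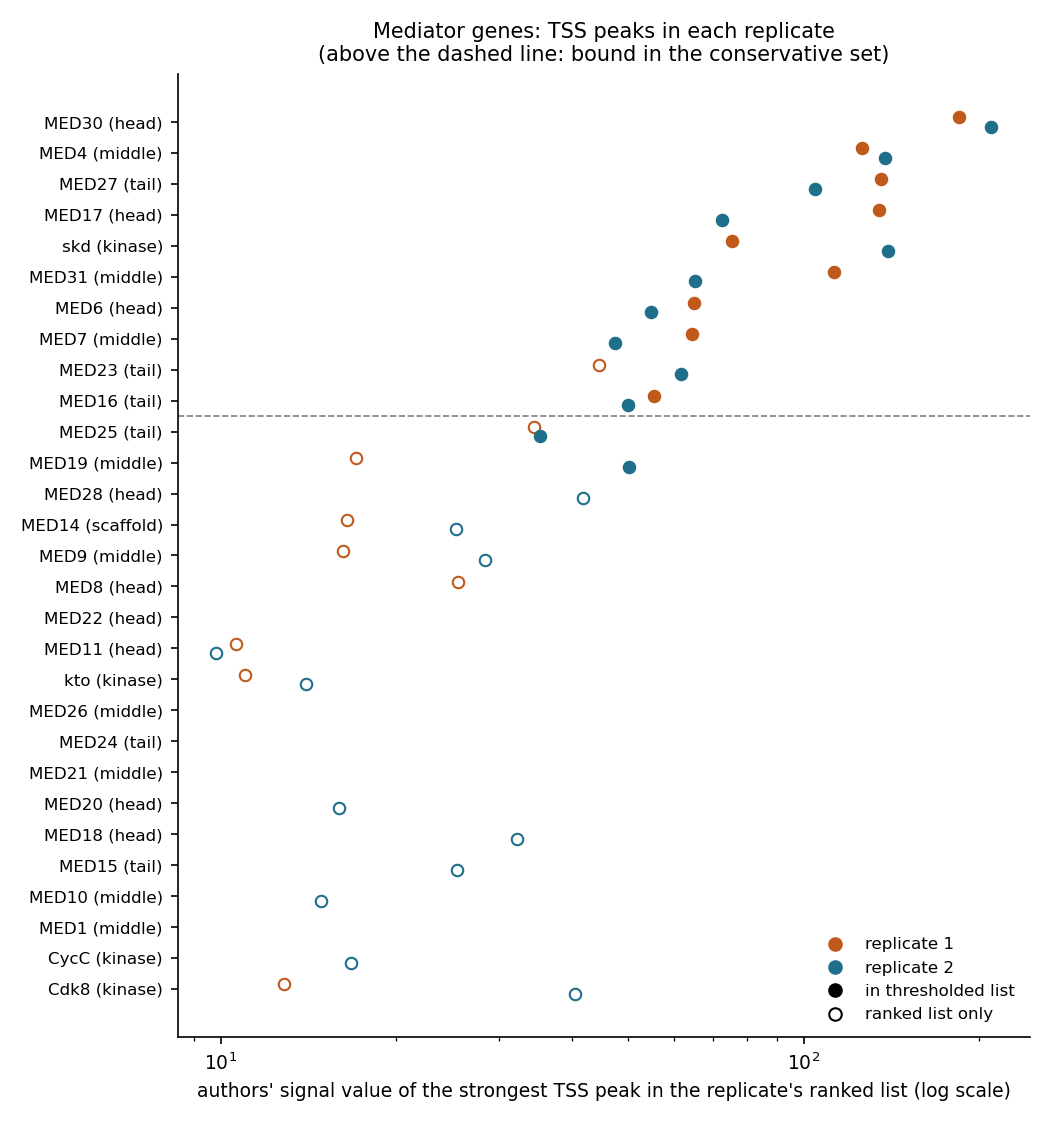
Signal value of the strongest TSS peak of each of the 29 Mediator genes in the ranked list of replicate 1 (orange) and replicate 2 (blue), on a log axis, with filled points where that peak is in the replicate's thresholded list. Genes above the dashed line are bound in the conservative set; below it only MED25 and MED19 have a filled point, both in replicate 2.

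The promoters of the 29 genes held words of 2 promoter factors more often than other promoters did. Promoters were taken from 250 bp before to 50 bp after the first annotated TSS and searched on both strands. The word GGTCACAC of M1BP, a factor of promoters of broadly active genes, was in 9 Mediator promoters (31.0%), against 7.64% of other promoters. The word TATCGATA of DREF, a factor known for genes of growth and DNA replication, was in 7 (24.1%), against 9.33%. Together 15 of the 29 (51.7%) held one or both, against 16.0% of other promoters, a description that was not tested. The M1BP word was in 8 of the 19 unbound Mediator promoters and in 1 of the 10 bound ones, that of MED23. Among other genes, 28.0% of those with the M1BP word were bound and 20.9% of those without it, so the split among Mediator genes ran the other way, in few genes and untested.

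Sequences around these words are shown because Mediator promoters held these words at a higher share than other promoters. Each run is 30 bases of the Release 6 assembly in the direction of the Mediator gene, with the word in capitals. The M1BP words of 7 of the 9 genes are as follows, without those of MED8 and MED23, and that of MED10 lies on the opposite strand.
MED10 (chr3L:16232006-16232035, plus strand): gcgattgaacaGTGTGACCttgctattcct
MED11 (chr3L:18745836-18745865, plus strand): tctcgtgttctGGTCACACtgttatctggt
MED15 (chr2L:473008-473037, plus strand): ttgcctgaaacGGTCACACtgtgctcagag
MED19 (chr3L:17846475-17846504, minus strand): tgtcgcaatgcGGTCACACtggttcgcgga
MED20 (chr2L:8072823-8072852, minus strand): aagtcagcactGGTCACACtggacgctttt
MED22 (chrX:928121-928150, plus strand): ggaaaatacgtGGTCACACtgtacatataa
MED24 (chr3L:8191276-8191305, plus strand): aaagatacctcGGTCACACtgagcgctgct

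Of these 7 words, 6 began within 17 bp of the TSS on the strand of the gene, and that of MED10 began 67 bp upstream. The DREF words lay farther upstream on the whole, and MED28 had 2 of them. They were at the bound genes MED7 and MED17 and at the unbound genes MED18, MED25 and MED28, among others.
MED7 (chr3R:10761203-10761232, minus strand): cacctttaagtTATCGATAgctaggcacgg
MED17 (chr3R:18189034-18189063, plus strand): gagcactcattTATCGATAgccggccgcag
MED18 (chrX:1865833-1865862, plus strand): acgttcatcgtTATCGATAgactatttgat
MED25 (chr3R:20008925-20008954, plus strand): cataagttgacTATCGATAgcagcagagcg
MED28 upstream (chr3R:25476915-25476944, plus strand): gcgattaaggcTATCGATAtatagcgctta
MED28 downstream (chr3R:25476950-25476979, plus strand): ttctaattcatTATCGATAagtcgtcggta

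Neither word was within 50 bp of a Mediator TSS summit, and over all TSS summits they were at 1.34% and 2.11%. At MED17 the DREF word began 27 bp upstream of the TSS, whereas the summit lay 79 bp upstream. ETS core words did not separate bound from unbound Mediator promoters by presence: GGAA was in 9 of 10 bound and 16 of 19 unbound ones (88.0% of other promoters), and GGAT in 6 of 10 and 15 of 19 (71.6%). CCGGAAGT was in none of the 29 (0.380% of other promoters). The BEAF-32 word CGATA, which lies within TATCGATA, was in 4 of 10 bound and 10 of 19 unbound Mediator promoters (47.3% of other promoters). The GAGA factor word GAGAG was in 1 of 10 and 5 of 19 (29.7%), and the TATA box word TATAAAA in 1 of 10 and 6 of 19 (24.2%).

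Other genes of the transcription machinery, elongation factors included, were together bound about as often as Mediator genes. Of 59 genes in 5 lists, 20 were bound (33.9%, 95% Wilson interval 23.1 to 46.6%), 19 in replicate 1 and 19 in replicate 2, against the 21.4% of protein-coding genes outside Mediator, a share below this interval. By list, 5 of 13 RNA polymerase II genes, 3 of 16 TFIID genes, 2 of 8 TFIIA, TFIIB, TFIIE and TFIIF genes, 4 of 10 TFIIH genes and 6 of 12 elongation factor genes were bound. Shares thus ran from 18.8% for TFIID, below the 21.4%, to 50% for elongation factors. Only the interval of the elongation factors (25.4 to 74.6%) lay above 21.4%, and the pooled share includes them. The strongest were the TFIIH subunit gene Ssl1 (1447 in the set, 799.6 and 659 in replicates 1 and 2) and mrn, the gene of another TFIIH subunit (598, with 363 and 237), both above every Mediator gene. Next came TH1 of the pausing factor NELF (375), Taf4 of TFIID (319), Polr2H (314), TfIIA-L (294), Polr2B (254), Nelf-E (246) and Taf5 (234). Taf2 (151), Polr2F (149), Spt6 (148), TfIIEbeta (147) and Tfb4 (116) were in the lower part of the Mediator range. Starts of neighbouring genes were not listed for the machinery genes, so their peaks may be shared with other genes.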

How the data were processed

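Members, gene lists and sequence words were chosen with earlier results of these data known. Per the labels and the authors' file lists, chromatin of 2 replicates was analysed as peak lists on dm6, and the series-level lists draw on both replicates. No source used here names the aligner or the peak caller. The deposited signal value and the scaled irreproducible discovery rate (IDR) score (at most 1000) of each peak, and its summit, were used as the authors gave them. The 16 further columns with values of the lists compared by IDR were not used. All 7157 conservative peaks are in the ranked list of 38614.

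Peaks on 7 arms were assigned to genes of Ensembl 115 (BDGP 6.54). Every peak and gene lay within the arms of the Release 6 FASTA. Replicate values are those of the nearest ranked summit within 100 bp, or, for genes not bound, of the strongest ranked TSS summit. Shares have 95% Wilson intervals (scipy 1.17.1, Python 3.11.15), which cover counting error only. Assignment was tested on simulated data. All 29 genes are accounted for; bound ones are named with replicate values, other genes where they share a bound promoter or are the 3 strongest of a list. Alternatives were other lists, windows of 250 and 1000 bp, the 3578 strongest peaks and interval overlap.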

Additional observations from a re-analysis of the deposited data

How the results depend on the processing

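The count of 10 bound Mediator genes became 11 with the other series-level list (MED25 added, signal 53.0), 10 with a TSS window of 250 bp and 11 with 1000 bp (MED8 added by a summit 815 bp away, signal 67.4), and ranged from 9 to 12 when 1 replicate was left out. It fell to 6 with the 3578 strongest conservative peaks (MED4, MED17, MED27, MED30, MED31 and skd; 12.2% of other genes) and to 6 when the interval had to overlap the TSS by 1 bp (MED6, MED7, MED16, MED17, MED23 and MED31), both settings being stricter by construction. The share of other genes bound was 25.3% with the other series-level list, 17.7% with 250 bp and 25.2% with 1000 bp. The Wilson interval for 10 of 29 genes (19.9 to 52.7%) lay above the 17.7%. That for 11 of 29 (22.7 to 56.0%) included the 25.3% and the 25.2%, so the reading depends on the window and the list. With gene bodies included, the strongest peaks also gave 6, and leaving out a replicate gave 9 to 12. Shares of other genes with bodies included were not listed for these settings, so these counts cannot be set against a background. The median signal of 191 moved to 239.8 in the strongest peaks, to 112 with interval overlap, which was below the 120.5 of other genes and where the cause was not tested, and to between 63.3 and 113 with 1 replicate, whose lists have their own scale. The 7 genes with a shared peak became 4 of 6 in the strongest peaks (66.7%, against 44.7% of other bound genes). With interval overlap they became 2 of 6 (33.3%, against 27.7%). They were 9 of 12 without replicate 1 (75%, against 39.2%) and 7 of 9 without replicate 2 (77.8%, against 49.6%). In both ranked lists 17 genes, against 9 in both thresholded lists, had a TSS summit. The same count over other genes was not made for the ranked lists, so the 17 cannot be set against a background. The 20 bound machinery genes became 13 with interval overlap, 14 in the strongest peaks and 19 with either replicate left out. All alternative settings for the machinery genes were added after the data were seen. Of the 16 conservative peaks of Mediator genes, 15 were matched in both replicates within 100 bp, 14 within 50 bp and 16 within 250 bp. No paired analysis was possible because both samples belong to 1 group. Depth is unknown, and a gene without a peak may lie below the limit of detection.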
